A study of Xenopus laevis with 9 samples.

Results

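The mRNAs of 7 cytosolic ribosomal proteins of the frog *Xenopus laevis* were followed through a filtration of egg extract. They are the 7 cytosolic ribosomal protein symbols chosen for description from the study's sheet that pairs gene identifiers with symbols, and they were joined by gene identifier to the table of raw read counts, in which they are 7 of 44478 genes. The rule names these symbols and uses no measured value, but the 7 were chosen with earlier results of these data known. The 9 other cytosolic ribosomal protein entries with known symbols are described further below. Of the 7, rps26.S, rps3.S and rps14.L encode proteins of the small subunit, and rpl11.S, rpl24.S, rpl31.S and rpl34.L encode proteins of the large subunit.

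The study asked which RNAs of the cytoplasm pass through a membrane with small pores. RNA was taken from the extract before filtration (input, labelled time 0), from a filtrate labelled low pressure, time 1 (T1), and from a filtrate labelled high pressure, time 2 (T2). Each condition has 3 biological replicates (9 libraries), and pressure and time changed together, so that they cannot be told apart. All libraries came from extract of eggs laid by adult wild-type females, to which cytochalasin D, nocodazole, protease inhibitors and sucrose had been added, and how many frogs gave each extract is not given in the sources used here.

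The ribosome is built from a small subunit, which reads the mRNA, and a large subunit, which joins the amino acids, and each holds ribosomal RNA and a set of ribosomal proteins made in matched amounts in growing cells. In vertebrates the mRNAs of nearly all these proteins begin with a run of pyrimidines, through which their translation is switched together, and in mammals the protein LARP1 binds this run. The frog egg carries a large store of ribosomes made during oogenesis, and most of its ribosomal protein mRNA is held out of translation until later in embryonic development. The genome of *X. laevis* arose by a fusion of a pair of ancestral genomes, and the suffixes L and S name the copy of a gene on the long or the short chromosome of each pair. For all 7 mRNAs the assembly's gene table also lists the other copy. None of these 7 other copies is among the 1999 entries whose symbols were known here, and reads that aligned to both copies were not counted.

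Between 65503682 and 90000652 reads were counted on genes in the input libraries, between 23509338 and 37265313 at T1 and between 60330615 and 93451602 at T2. Levels are given as CPM (read counts scaled to a common library total) after TMM scaling, which aims to line up the bulk of genes between libraries. They are therefore shares of the counted RNA and not amounts per volume of extract. The scaling did not line up T1 replicate 3 in this sense. Relative to its own mean input level, the median tested gene was at -2.48 there on the log2 scale after scaling, against -0.33 and -0.52 in T1 replicates 1 and 2. Reads that aligned to several places made up 4.64% to 8.46% of aligned reads at T1, against 1.83% to 2.00% in the input. All 7 egg marker mRNAs on the list used had reads. Their summed level, here in CPM without TMM scaling, was 1470 to 1724 in the input, 1268 to 1943 at T1 and 1502 to 1766 at T2. The sum hides opposite changes of single markers. After TMM scaling their log2 fold changes of T1 over input ran from -1.51 (gdf9.L) to 2.13 (npm2.L). The 3 somatic marker mRNAs together had 9.90 to 24.7 CPM in the input, 0.188 to 16 CPM at T1 and 5.05 to 37.8 CPM at T2, also without TMM scaling.

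All 7 mRNAs were present in every library, with 367 to 16781 reads, and all 7 passed the filter on low counts. Every one had its lowest mean level in the input, a middle level at T2 and its highest level at T1. This order held for 29.8% of the 20148 genes tested. The 7 together took 0.0118%, 0.0108% and 0.0144% of the reads on genes in input replicates 1, 2 and 3. They took 0.0548%, 0.0567% and 0.117% at T1 and 0.0185%, 0.0276% and 0.0485% at T2. The joint share was thus higher in every T1 library than in any T2 library, and higher in every T2 library than in any input library.

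**Figure D1:**
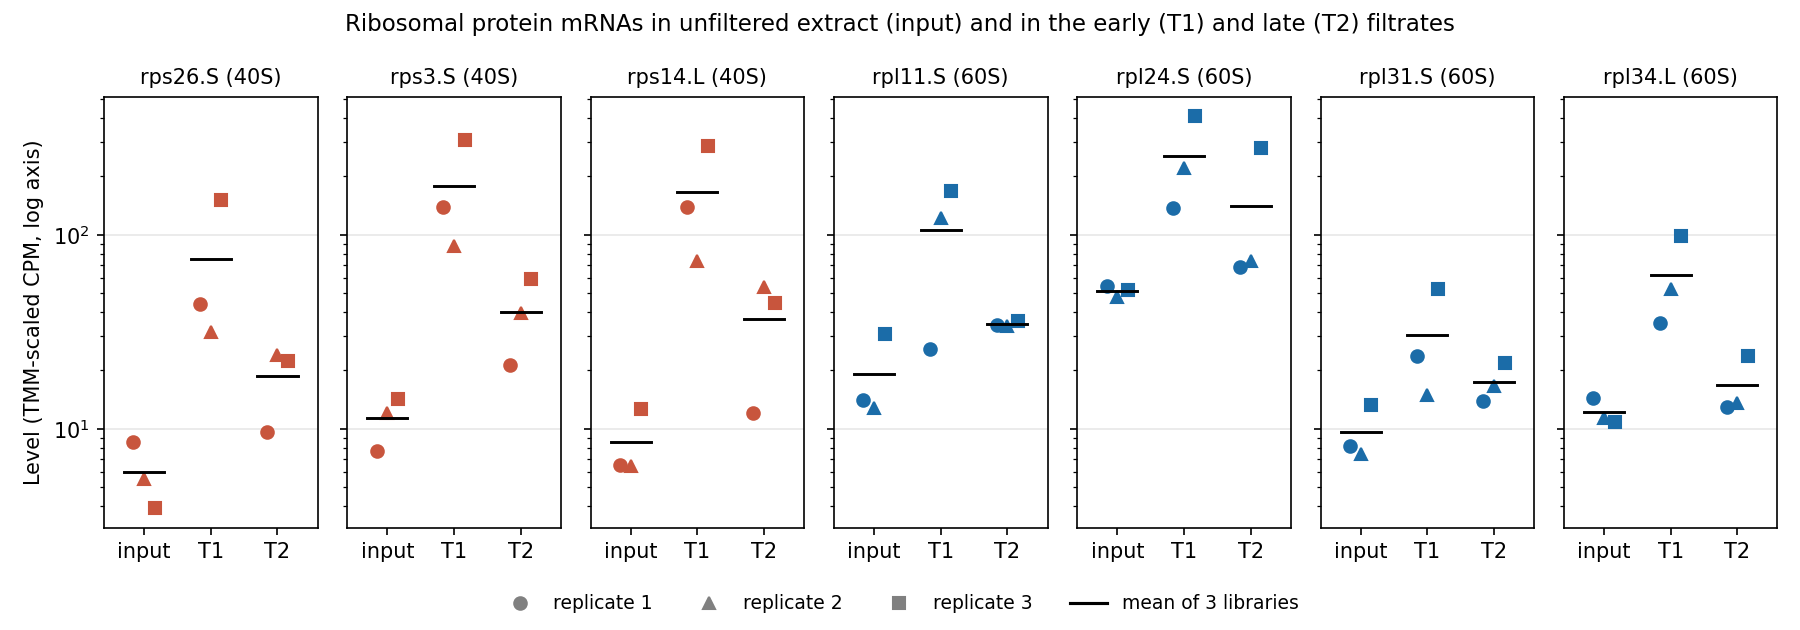
Level of each of the 7 mRNAs (CPM after TMM scaling, log axis) in the input, T1 and T2, with small subunit (40S) mRNAs in red and large subunit (60S) mRNAs in blue. Markers are the 3 replicates and bars their mean; T1 replicate 3 is the highest T1 library in all 7 panels, and in the panel of rpl11.S the lowest T1 library, 25.8 CPM, lies below the highest input library, 30.9 CPM.

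The first question was which of the 7 mRNAs were enriched in the early filtrate, relative to the unfiltered extract. All 3 small subunit mRNAs and 3 of the 4 large subunit mRNAs rose at an adjusted p-value under 0.05, 6 of 7 in all, against 6.44% of all genes tested that were called higher. The small subunit mRNAs rose 12.6- to 19.5-fold, and the 3 large subunit mRNAs 4.97- to 5.47-fold. Fold changes and p-values are from edgeR's quasi-likelihood test on the counts of all 9 libraries, with Benjamini-Hochberg adjustment across the 20148 genes. That fit pairs no libraries. With the replicate number as a block, 3 of the 7 were called (rps14.L, rps3.S and rpl24.S), beside 926 of all genes tested called higher.

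Of the small subunit, rps14.L encodes a protein of the platform of the subunit, near the path of the mRNA. The gene (XBXL10_1g12050) lies on chromosome 3L from 26707426 to 26713909 in the assembly Xenopus_laevis_v10.1. Its level was 6.52, 6.46 and 12.7 CPM in input replicates 1, 2 and 3, 139, 73.2 and 287 CPM at T1, and 12.1, 53.7 and 44.7 CPM at T2. Every T1 library was above every input library, by at least 5.78-fold, whereas T2 replicate 1 lay within the range of the input. The log2 fold change at T1 was 4.28 (SE 0.721, adjusted p = 0.00631), the largest of the 7 and at percentile 98.6 of all genes tested.

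The protein of rps3.S lines the entrance through which mRNA enters the small subunit. The gene (XBXL10_1g11185) lies on chromosome 2S from 165013239 to 165026365. It had 7.70, 12.1 and 14.2 CPM in the input, 139, 87.3 and 307 CPM at T1 and 21.3, 39.4 and 59.2 CPM at T2. The 3 conditions did not overlap in any pairing, with the input lowest and T1 highest. At T1 it was higher by a log2 fold change of 3.97 (SE 0.602, adjusted p = 0.00454).

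The protein of rps26.S sits where mRNA leaves the small subunit. The gene (XBXL10_1g10710) lies on chromosome 2S from 129342444 to 129347444. Its level was 8.53, 5.49 and 3.90 CPM in the input, 43.7, 31.5 and 151 CPM at T1 and 9.63, 23.9 and 22.4 CPM at T2. The 3 conditions again did not overlap, although T2 replicate 1 was only 1.13 times the highest input library. Its log2 fold change at T1 was 3.66 (SE 0.803, adjusted p = 0.0189).

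Of the large subunit, rpl11.S encodes a protein that joins the ribosome together with RPL5 and the smallest ribosomal RNA of the large subunit and that, in mammals, also binds the p53 regulator MDM2. The gene (XBXL10_1g10191) lies on chromosome 2S from 82660187 to 82668477. It had 14.0, 12.8 and 30.9 CPM in the input, 25.8, 122 and 168 CPM at T1 and 34.2, 34.0 and 36.0 CPM at T2. This was the one mRNA of the 7 whose T1 and input libraries overlapped, since T1 replicate 1 was below input replicate 3, while its T2 libraries lay close together above the input. The log2 fold change at T1 was 2.45 (SE 0.672, adjusted p = 0.0416).

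The protein of rpl24.S lies on the face of the large subunit that meets the small one. The gene (XBXL10_1g10331) lies on chromosome 2S from 93285532 to 93295657. Its level was 54.6, 47.6 and 52.1 CPM in the input, 138, 220 and 408 CPM at T1 and 68.1, 73.2 and 280 CPM at T2. Its input libraries were the closest together of the 7, every filtrate library was above them, and T2 replicate 3 stood well above T2 replicates 1 and 2. At T1 its log2 fold change was 2.31 (SE 0.579, adjusted p = 0.0301).

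The rpl34.L gene (XBXL10_1g1108), for another protein of the large subunit, lies on chromosome 1L from 70916984 to 70922023. It had 14.3, 11.3 and 10.9 CPM in the input, 35.2, 52.3 and 98.1 CPM at T1 and 13.0, 13.7 and 23.7 CPM at T2. All T1 libraries were above all input libraries, and T2 replicates 1 and 2 lay within the range of the input. Its log2 fold change at T1 was 2.34 (SE 0.644, adjusted p = 0.0418).

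The protein of rpl31.S sits at the rim of the tunnel through which the new protein leaves. The gene (XBXL10_1g10407) lies on chromosome 2S from 101567372 to 101572293. Its level was 8.12, 7.42 and 13.3 CPM in the input, 23.7, 14.9 and 52.8 CPM at T1 and 13.9, 16.6 and 21.9 CPM at T2. The T1 libraries did not overlap the input, but the lowest of them was only 1.12 times the highest input library. The log2 fold change at T1 was 1.66 (SE 0.815, adjusted p = 0.184) and did not pass the threshold.

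Read without a model, 6 of the 7 mRNAs had all 3 T1 libraries above all 3 input libraries, against 15.7% of all genes tested. The calls of rps14.L and rps3.S were kept when any 1 library was left out, and the call count fell to these 2 without any 1 of the input libraries and to 3, rps26.S included, without T1 replicate 3; rpl11.S was also lost without T1 replicate 2, and rpl11.S and rpl34.L without any 1 of the T2 libraries. The number of all genes called higher was 1297 in the fit reported and 293, 287 and 401 without input replicates 1, 2 and 3. It was 1455 without T1 replicate 3, 1387 without T1 replicate 2, and 887, 911 and 1191 without T2 replicates 1, 2 and 3. Without T1 replicate 3, the log2 fold changes were 3.63 for rps14.L, 3.32 for rps3.S and 2.66 for rps26.S, and 1.01 to 1.95 for the 4 large subunit mRNAs.

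The second question was whether the mRNAs were still enriched in the late filtrate. None of the 7 passed the adjusted threshold between T2 and the input, where 0% of all genes tested did. All 7 log2 fold changes were above 0, as were those of 57.1% of all genes at T2 and 48.0% at T1. The T2 comparison uses the same input libraries as the T1 comparison, so the values of both are given side by side and were not tested against each other. At T2 the log2 fold change was 2.11 for rps14.L (SE 0.657), 1.82 for rps3.S (SE 0.550) and 1.64 for rps26.S (SE 0.742), with adjusted p-values of 0.323, 0.318 and 0.640. For the large subunit it was 1.45 for rpl24.S (SE 0.563, adjusted p = 0.489), and for rpl31.S, rpl11.S and rpl34.L it was 0.86, 0.85 and 0.46, all with an adjusted p-value of 1.00. Without T2 replicate 3 the value of rpl24.S was 0.46. Without adjustment, 4 of the 7 had a p-value under 0.05 (rps14.L, rps3.S, rps26.S and rpl24.S), against 3.90% of all genes tested that were higher at this level. DESeq2 also called 0 of the 7, but it gave no adjusted p-value for rpl31.S and rpl34.L. Over all genes it called 250, in both directions together. All T2 libraries lay above all input libraries for 5 mRNAs, all but rps14.L and rpl34.L, against 14.1% of all genes.

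**Figure D2:**
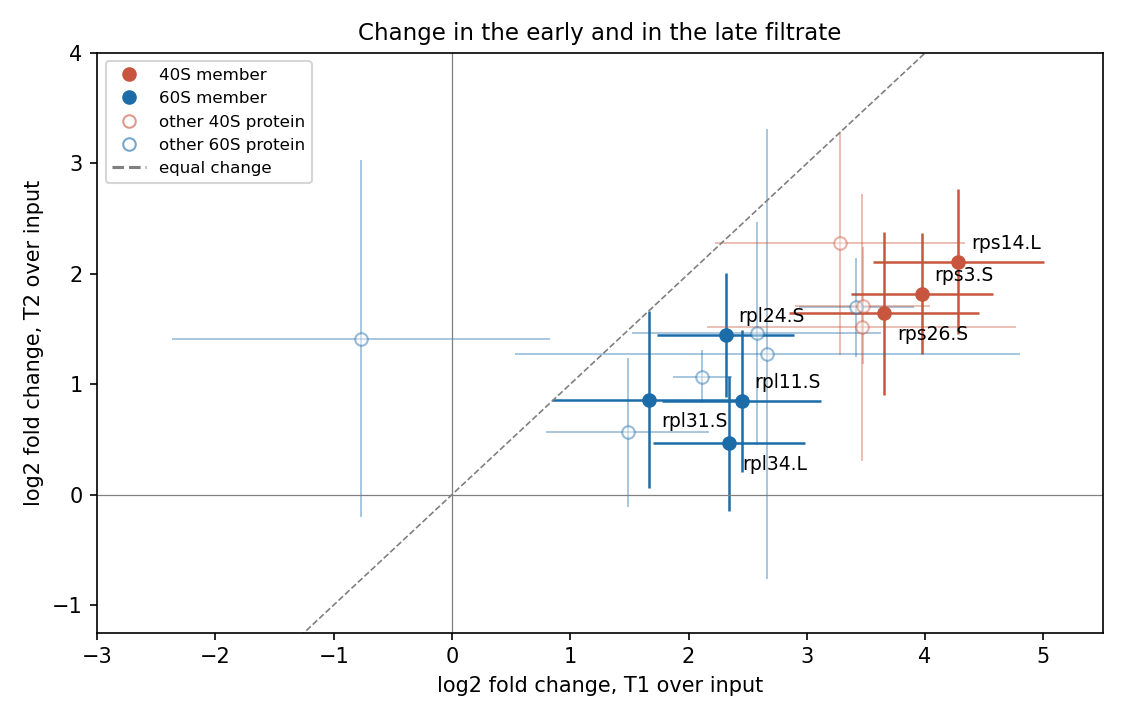
Log2 fold change over input at T1 (x axis) and at T2 (y axis) for the 7 mRNAs (filled) and the 9 other cytosolic ribosomal protein entries (open), with bars of 1 SE and a dashed line of equal change. All 7 filled points lie above 0 on both axes and below the dashed line, with the 3 small subunit mRNAs (red) farthest to the right; both axes share the input libraries.

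Between the filtrates, all 7 mRNAs had lower fitted levels at T2 than at T1. The fold change was negative for 46.6% of all genes. None of the 7 passed the adjusted threshold, at which 0.00993% of all genes were called lower. The log2 fold change of T2 over T1 was -2.18 for rps14.L (SE 0.658, adjusted p = 0.117), -2.15 for rps3.S (SE 0.556, adjusted p = 0.0905) and -2.01 for rps26.S (SE 0.750, adjusted p = 0.166). For the large subunit it was -1.88 for rpl34.L (SE 0.633, adjusted p = 0.142) and -1.60 for rpl11.S (SE 0.652, adjusted p = 0.189). The smallest differences were those of rpl24.S, -0.86 (SE 0.555, adjusted p = 0.395), and rpl31.S, -0.80 (SE 0.799, adjusted p = 0.632). Without T1 replicate 3 the values were -1.52 for rps14.L, -1.50 for rps3.S, -1.01 for rps26.S and -0.14 for rpl31.S, and without T2 replicate 3 that of rpl24.S was -1.85. The T2 libraries lay below all T1 libraries for 4 of the 7, the small subunit mRNAs and rpl34.L, against 7.73% of all genes tested. At an unadjusted p-value under 0.05, 5 of the 7 were lower at T2, against 8.11% of all genes. DESeq2 called 5 of the 7 lower at T2 than at T1, and edgeR called rps3.S, rpl11.S and rpl34.L without T1 replicate 1 and rps3.S alone without T1 replicate 2. These settings also changed the calls over all genes tested. In both directions together, DESeq2 called 3518 genes and edgeR 0 to 2043 with 1 library left out, against 20 in the fit reported.

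The subunits were then compared by how far each mRNA moved from its own input level, since transcript lengths were not available to compare levels between genes. At T1 the lowest log2 fold change of a small subunit mRNA, 3.66, was above the highest of a large subunit mRNA, 2.45. All 12 pairs of a small and a large subunit mRNA therefore had the larger value in the small one, by 1.21 to 2.62. The median was 3.97 over the 3 small subunit mRNAs and 2.33 over the 4 large subunit ones, a difference of 1.64. At T2 the order was the same in all 12 pairs, with medians of 1.82 and 0.86, but the closest pair, rps26.S and rpl24.S, differed by only 0.19, and the value of rpl24.S rested on T2 replicate 3 as given above. Between T2 and T1 the medians were -2.15 for the small and -1.23 for the large subunit.

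Within single libraries the split was less clean. Relative to the mean input, 12, 11 and 12 of the 12 pairs had the larger increase in the small subunit mRNA in T1 replicates 1, 2 and 3, and 9, 12 and 9 in the T2 replicates. In T1 replicate 2 the exception was rpl11.S, whose value was above that of rps26.S. The most enriched mRNA was rps14.L in all 3 T1 libraries, at 4.02, 3.10 and 5.07 on the log2 scale. The least enriched was rpl11.S in T1 replicate 1, at 0.42, and rpl31.S in T1 replicates 2 and 3, at 0.63 and 2.46. All 7 were above their mean input level in all 6 filtrate libraries, and the share of all genes for which this held was not counted. On the same scale the median tested gene was at -0.33, -0.52 and -2.48 in T1 replicates 1, 2 and 3. At T2 it was at 0.01, 0.04 and -0.08.

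The mean log2 CPM of the small subunit mRNAs minus that of the large subunit mRNAs gives 1 value per library. This difference sets levels of different genes against each other. Only its shift from the input, and not its sign, compares with the values above, and the share of summed CPM below has the same limit. It was not corrected for transcript length. The difference was -1.2, -0.995 and -1.30 in the input, 1.19, -0.21 and 0.79 at T1 and -0.91, 0.43 and -0.29 at T2. Both filtrates lay above the input in every library, T2 replicate 1 by less than 0.1, and T1 and T2 overlapped. As a share of the summed CPM of the 7, the small subunit mRNAs made up 20%, 23.3% and 22.3% in the input, 59.1%, 31.9% and 50.6% at T1 and 25.0%, 46.0% and 25.9% at T2. The difference between the subunit medians stayed between 1.5 and 1.92 at T1, and between 0.75 and 1.23 at T2, when 1 library was left out at a time. These values describe 7 mRNAs and are no test of the subunits as classes.

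**Figure D3:**
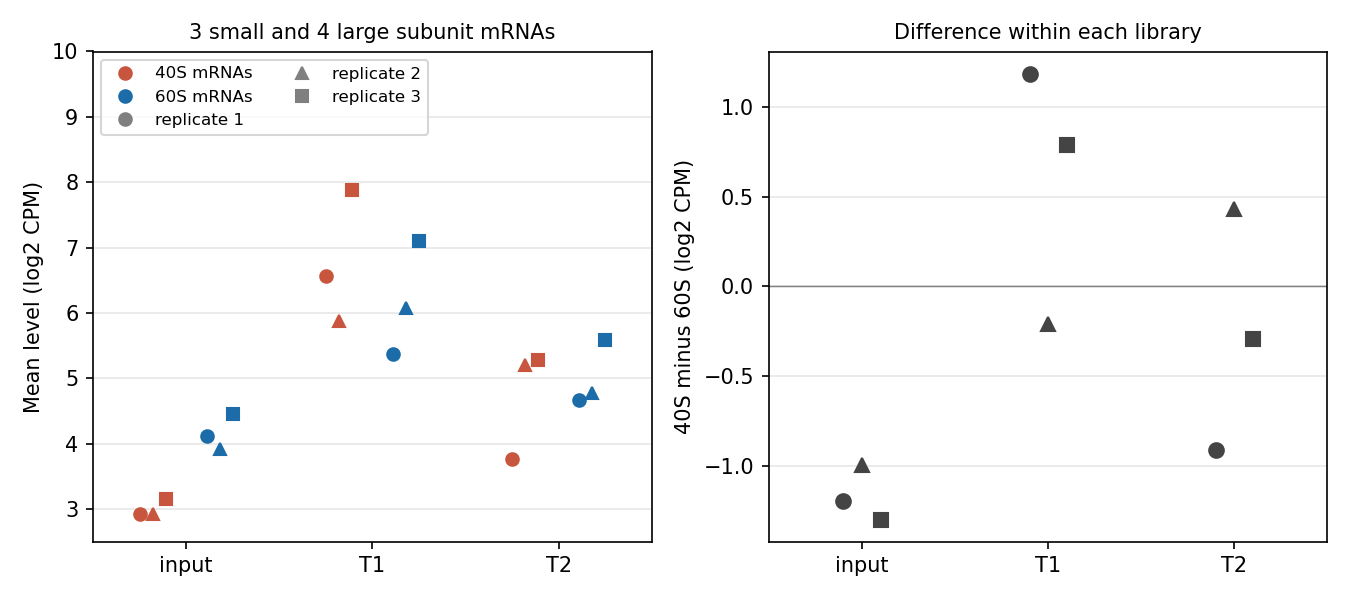
Left, mean log2 CPM of the 3 small subunit (40S, red) and the 4 large subunit (60S, blue) mRNAs in each library; right, small minus large within each library. The difference lies between -1.30 and -0.995 in the input and above that range in all T1 and T2 libraries, with T1 and T2 overlapping.

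Replicates of the 7 mRNAs were farther apart at T1 than in the input, whereas at T2 rpl11.S and rpl31.S were closer together than in the input. For the 7 mRNAs, the highest library was 1.15 to 2.41 times the lowest in the input, 2.78 to 6.51 times at T1 and 1.06 to 4.44 times at T2. T1 replicate 3 was the highest T1 library for all 7, and the lowest was T1 replicate 1 for 3 mRNAs and T1 replicate 2 for the other 4. At T2 the lowest library was replicate 1 for 6 of the 7 and the highest was replicate 3 for 5. The summed CPM of the 7 was 4.60, 5.09 and 12.4 times the mean input in the T1 libraries and 1.46, 2.15 and 4.12 times in the T2 libraries. The library highest for these mRNAs at T1, replicate 3, is also the one with the fewest reads and with the lowest median over all genes, and the part of these differences in the levels of the 7 was not tested beyond the values given without it.

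The 7 mRNAs moved together over the libraries. Across the 9 libraries, which share the contrast of filtrate and input, Pearson's r of log2 CPM over the 21 pairs had a median of 0.868 and ran between 0.741 and 0.982. It was between 0.942 and 0.982 within the small subunit and between 0.757 and 0.905 within the large subunit. The mRNA most like the mean of the 7 was rps3.S (r = 0.983), and the least alike was rpl11.S (r = 0.853). That mean includes the mRNA itself, which raises these r values, so they do not compare with those of other genes.

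Among the 1586 other named entries compared over the same 9 libraries, the closest to the mean of the 7 was rps16.L (r = 0.989), which encodes another small subunit protein. It was followed by atp5f1c.L (r = 0.988), for the gamma subunit of the mitochondrial ATP synthase, and mdh2.S (r = 0.986), for the mitochondrial malate dehydrogenase. Then came mcub.L (r = 0.979), for a subunit of the mitochondrial calcium channel that lowers its activity, and zp4.L (r = 0.977), for a glycoprotein of the egg coat. The median r of the entries compared was -0.432. All 5 rose at T1, by 3.47, 1.87, 2.48, 2.32 and 1.92 on the log2 scale in the order named. Their adjusted p-values in edgeR were 0.00578, 0.0194, 0.00988, 0.0118 and 0.0145, and 6.44% of all genes tested were called higher. The 5 were picked for likeness, over these same libraries, to a mean that is highest at T1. A rise at T1 was thus built into the choice and is no separate result.

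The other mRNAs of the translation machinery came from lists of the named entries. Of 9 other entries for cytosolic ribosomal proteins, 3 rose at T1 and none fell, against 6.44% of all genes tested called higher and 5.08% called lower. Their median log2 fold change was 2.66, against -0.09 for all genes. The 3 include rps16.L and rpl4.L. The level of rps16.L was 279, 250 and 908 CPM at T1, against 37.7, 31.6 and 60.2 CPM in the input (log2 fold change 3.47, adjusted p = 0.00578). That of rpl4.L, for a large subunit protein, was even among replicates, with 60.3, 49.7 and 65.6 CPM in the input, 233, 240 and 288 CPM at T1 and 121, 123 and 125 CPM at T2 (log2 fold change at T1 2.11, adjusted p = 0.00300). For 8 of these 9 entries the means were in the order input, T2, T1 (29.8% of all genes), and 7 had all T1 libraries above all input libraries (15.7% of all genes).

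In this second set the subunits did not split as cleanly. At T1 the highest log2 fold change of the 6 other large subunit entries was above the lowest of the 3 other small subunit entries. The only value below 0 was that of LOC121400351, whose human counterpart in the study's sheet is RPL27A, at -0.77 (SE 1.60, adjusted p = 0.794). The rpl26.L mRNA was at 468 and 942 reads in T1 replicates 1 and 3 and at 1 read in T1 replicate 2.

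Proteins of the mitochondrial ribosome are also encoded in the nucleus and made on cytosolic ribosomes. Of 10 such entries, 0 passed the threshold at T1 in edgeR, against 6.44% of all genes called higher and 5.08% called lower, and 2 had an unadjusted p-value under 0.05, against 32.4% of all genes. Values ran up to 2.91 (mrps35.L, SE 2.05, adjusted p = 0.364), 2.70 (mrpl46.L, SE 2.12, adjusted p = 0.427) and 2.64 (mrpl48.S, SE 0.925, adjusted p = 0.0818). These 3 were above the values of the 4 large subunit mRNAs but uneven among replicates. In T1 replicates 1, 2 and 3, mrps35.L had 361, 2633 and 1 reads and mrpl46.L had 470, 519 and 1 reads. The level of mrpl48.S was 15.5, 19.8 and 152 CPM there. The lists were not tested against each other. Their median log2 fold change was 0.99 at T1 and 0.26 at T2, and 4 of the 10 had means in the order input, T2, T1, near the 29.8% of all genes. Only 5 of the 10 had at least 10 reads in every T1 library, as did 64.8% of the tested genes with a mean input of at least 5 CPM, 5 of the 7 mitochondrial entries at that level and all 7 cytosolic mRNAs described first. The lowest of the list, mrps33.L, was at 1 read in each T1 library.

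Among 8 translation factor entries, 3 rose at T1 and none fell, with 6.44% of all genes called higher and 5.08% called lower, and the median of the list was 0.96. The 3 were eif3i.S (1.52, adjusted p = 0.0210), for a subunit of the initiation factor that binds the small subunit, eif4h.S (1.09, adjusted p = 0.00667), for a helper of the initiation helicase, and eef1a1o.S (0.76, adjusted p = 0.0420), for the oocyte form of the elongation factor that brings tRNA to the ribosome. All 3 had smaller log2 fold changes than the 6 called ribosomal protein mRNAs. Of 10 ribosome assembly entries, 2 rose and none fell, beside the same shares of all genes. These were polr1h.L (3.92, adjusted p = 0.0340), for a subunit of the polymerase that makes ribosomal RNA, and gar1.L (2.83, adjusted p = 0.00484), for a protein of the particles that modify it. The median of that list was -0.16.

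None of the 5 entries for La-related proteins passed the threshold at T1 or had an unadjusted p-value under 0.05, which 32.4% of all genes had. All 5 values were below 0, as were those of 52.0% of all genes, with a median of -1.0. They include larp1.L, at -1.0 (SE 1.02, adjusted p = 0.558), which had 2337, 1311 and 11 reads in T1 replicates 1, 2 and 3.

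**Figure D4:**
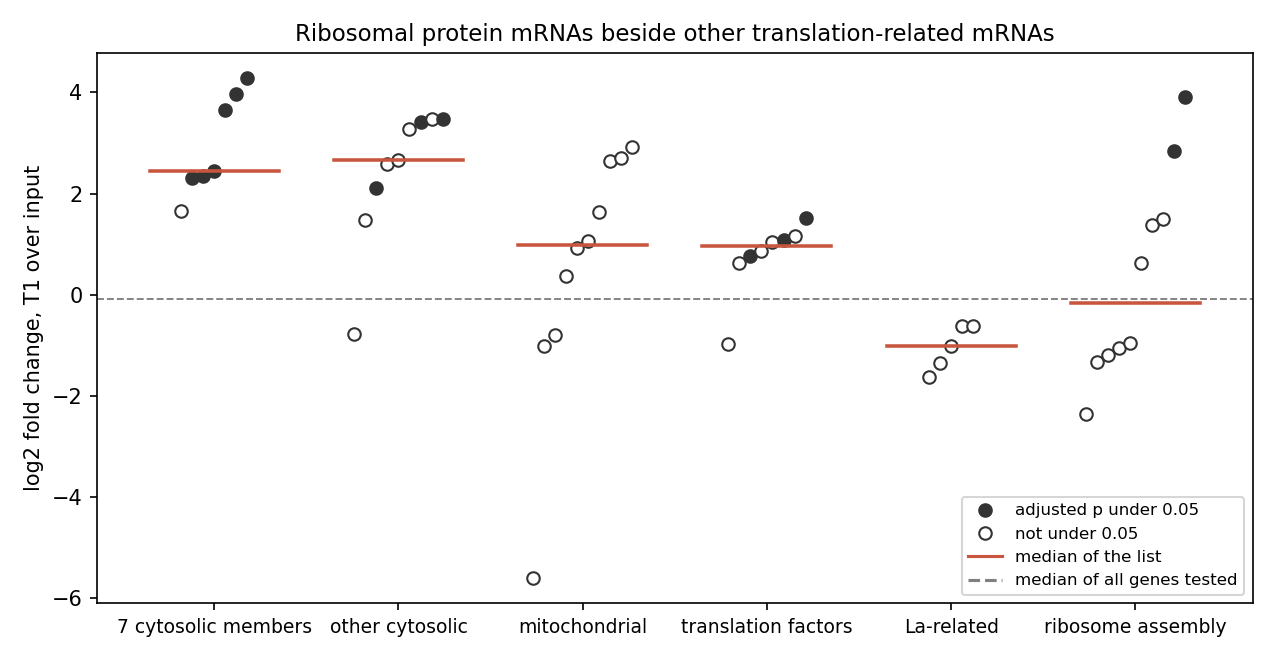
Log2 fold change of T1 over input for each gene of the 7 cytosolic ribosomal protein mRNAs and of 5 other lists, with filled points at an adjusted p-value under 0.05, red lines at list medians and a dashed line at the median of all genes tested, -0.09. The medians are 2.45 for the 7 mRNAs, 2.66 for the other cytosolic entries and 0.99, 0.96, -1.0 and -0.16 for the lists to their right.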

How the data were processed

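RNA from egg extract and its filtrates was extracted with TRIzol, depleted of ribosomal RNA and made into stranded libraries. The authors trimmed the reads with Trim Galore, aligned them with STAR and deposited raw counts of reads per gene, in which only uniquely aligned reads are counted. Which strand column was taken is not given in the sources used here. Rows that name no gene held 36.2% to 46.1% of all reads and were left out. The authors also deposited counts divided by DESeq2 size factors, a signal from which whole reads were recovered for 100% of values (tolerance 0.02). These were used as an alternative only, and differed from the raw counts in 4527 genes but in 0 of the 7 mRNAs. The number of unused columns was 0.

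Counts were fitted with edgeR 4.0.16 in R 4.3.3 (quasi-likelihood F test, TMM, filterByExpr, condition as the only term, all 9 libraries), with adjustment over 20148 genes and a threshold of 0.05. Standard errors are the size of the log2 fold change over the square root of F. Log2 CPM used a prior count of 2. The steps were tested on simulated data. DESeq2 1.42.0 was an alternative, beside other scalings, filters, a replicate block and leaving out each library. Precision read from depth covers counting error only. Replicates are labelled as separate, and p-values measure the spread between them.

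Symbols were known for 1999 genes. All 7 mRNAs were named, with the genes of the lists that passed the threshold, list extremes and the 5 entries most like the mean of the 7. The mRNAs and lists were chosen with earlier results of these data known. Some genes of the lists are not reported here by name.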

Additional observations from a re-analysis of the deposited data

How the results depend on the processing

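No direction of any of the 7 mRNAs turned round under the 17 alternatives. At T1, rps14.L and rps3.S kept an adjusted p-value under 0.05 in all 17, up to 0.0476 and 0.0372. The others lost it in 11 (rpl11.S), 10 (rpl34.L), 4 (rpl24.S) and 4 (rps26.S) of 17, and rpl31.S passed with DESeq2 only (log2 fold change 1.84, adjusted p = 0.0206). Of the 7, 4 were called with library size alone, 5 without a filter, 5 with the compared conditions alone and 7 with DESeq2, against 6 in the fit reported. Over all genes, 1063, 1132, 1392 and 2937 were called higher in these settings, in the same order, against 1297 in the fit reported. Leaving out 1 library gave 2 to 6 calls among the 7: 2 without any input library, 6, 5 and 3 without T1 replicates 1, 2 and 3, and 4 without any T2 library. Between T2 and T1 it gave 0 to 3 calls, 3 without T1 replicate 1 and 1 without T1 replicate 2, and DESeq2 gave 5. Between T2 and the input all alternatives gave 0, and DESeq2 gave no adjusted p-value for rpl31.S and rpl34.L there.

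With the replicate number as a block, 3 of the 7 mRNAs were called at T1 (rps14.L, rps3.S and rpl24.S). The paper counts 3 biologically independent samples and 9 experiments, but the labels do not say whether libraries with the same number share an extract. The reported fit therefore used no pairing, and its call count depends on that choice. The somatic marker inhbc.2.S had 1502, 6 and 1977 reads in input replicates 1, 2 and 3. It had 152, 6 and 375 reads at T1 and 3442, 6 and 648 at T2, so replicate 2 was lowest in every condition. The somatic marker LOC108711240 had 3, 642 and 4 reads in the input, 1, 1 and 0 at T1 and 0, 424 and 1 at T2. The somatic marker LOC108710147 had 116, 51 and 16 reads in the input, 1, 0 and 0 at T1 and 95, 1 and 0 at T2. Whether libraries with the same number share an extract was not tested beyond these reads and the correlations that follow. The correlation of deviations of same-numbered libraries ran between -0.02 and 0.33, and that of differently numbered ones between -0.34 and 0.17. Between T1 and T2 it was 0.066, 0.090 and 0.065 for the same numbers and between -0.057 and -0.011 for different ones. Against the input, not every library correlated best with its own number.

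Over all genes, 2320 were called at T1, 5630 with DESeq2, 4013 with the compared conditions alone, 1499 with the block and 417 to 4083 with 1 library left out. Between T2 and the input the count was 0, 250 with DESeq2, 192 with the compared conditions alone and up to 34 with 1 library left out. Between T2 and T1 it was 20, 3518 with DESeq2 and 0 to 2043 with 1 library left out. The other 9 cytosolic entries gave 3 calls at T1, 7 with DESeq2 and 6 without T1 replicate 1. The median of all genes at T1 was -0.09, -0.25 with library size alone and -0.51 without a filter. The causes of these changes were not tested. Depth as a cause was not tested, and the 7 mRNAs had at least 524 reads in every T1 library.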
